A study of Mus musculus with 6 samples.

Results

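DEAD box and DEAH box proteins are RNA helicases, enzymes that use ATP to unwind RNA duplexes or to strip proteins from RNA, and they are named for the amino acids of a conserved motif. They act at nearly every step of an RNA's life, from splicing and ribosome assembly in the nucleus to export, translation and decay, and some sense viral RNA. The retina is rich in neurons with heavy RNA processing, and several general splicing factors are known human disease genes of photoreceptors. The genes described here were all those whose symbol in the platform annotation began with Ddx or Dhx followed by a digit, Ddx58 left out. They numbered 50 of 18193 named genes and were read by 110 of the 45037 probe sets of the array.

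Whole retinas came from female DBA/2J animals, mice of an inbred strain whose intraocular pressure rises with age and in which glaucoma follows, and their messenger RNA was measured. The retinas of 8-month animals with elevated pressure were compared with those of 3-month animals with normal pressure, 3 retinas per age, each from a separate animal and on its own Affymetrix array. No animal was treated, and all carried the same strain background. The last pressure of the sampled eyes averaged 27.4 ± 2.67 mmHg in the older animals, against 17.5 ± 1.99 mmHg in the younger ones (SD, n = 3 per age). Because animals were chosen by pressure, age and pressure differed together and cannot be told apart. No retina of another strain was used here, so a difference between ages is not specific to glaucoma by design.

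Each probe set has a log2 value per array, so that a difference of 1 is a 2-fold change, and levels of different probe sets cannot be set against each other. A probe set was kept where at least 3 of the 6 arrays reached 4, without regard to age. This kept 78 of the 110 helicase probe sets and 43 of the 50 genes, against 20973 probe sets and 11219 genes in all. Each gene was represented by its brightest kept probe set, and the others were used to judge agreement. Probe sets whose suffix marks probes that may match several transcripts are called less specific, and they made up 29 of the 78. The ages were compared by limma over the whole table, and adjusted p-values (Benjamini-Hochberg) run over every kept probe set of the table.

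The retina's defining markers were present, as 10 of 13 listed genes were found, all were kept, and their mean level lay between 10.98 and 11.05 at 8 months and between 10.98 and 11.15 at 3 months. Lens markers stood apart in 8-month retina 1 and 3-month retina 3, at mean levels of 8.19 and 9.39, against 4.22 to 5.57 in the other retinas. Means of retinal pigment epithelium markers (4.14 to 5.37 at 8 months, against 3.88 to 5.61 at 3 months) and of blood markers (4.04 to 4.39, against 3.95 to 4.60) overlapped between the ages, and skeletal muscle markers lay between 2.95 and 3.09 in all retinas. Markers of microglia and macrophages averaged 4.33 to 4.42 at 8 months and 4.08 to 4.15 at 3 months, with 5 of 10 kept, and their part in the results below was not tested. All 3-month retinas and 8-month retina 1 came from left eyes, whereas 8-month retinas 2 and 3 came from right eyes. Actin control probe sets read 1.71 to 1.84 higher at the 3' than at the 5' end at 8 months, against 1.62 to 1.87 at 3 months, with overlap. In the Gapdh control probe sets this 3'-minus-5' reading was 0.76 to 0.81 at 8 months, against 0.71 to 0.75 at 3 months, without overlap. The part of RNA quality in the results below was not tested.

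No helicase gene passed the test over the whole table, in which 1 of 11219 genes did (0.00891%). The smallest limma adjusted p of a helicase gene was 0.208, and the largest difference was 0.56 on the log2 scale, so none reached a 2-fold change. At an unadjusted limma p under 0.05, 9 of the 43 genes were lower and 1 was higher at 8 months, or 20.9% and 2.33%, against 11.5% and 3.58% of all genes. The 2 ages did not overlap in 13 lower and 3 higher helicase genes, or 30.2% and 6.98%, against 16.9% and 6.05% of all genes. In all, 30 of 43 were lower by any amount, or 69.8%, against 63.5% of all genes. By probe sets, 16 of 78 were lower and 6 higher at that p, or 20.5% and 7.69%, against 10.3% and 4.63% of all probe sets, and 20 lower and 9 higher ones did not overlap, against 14.9% and 6.89% of all. None of the 78 passed, where 0.00477% of all probe sets did, and 46, or 59.0%, were lower by any amount, against 59.4% of all.

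The median log2 difference was -0.11 over the helicase genes and -0.06 over all genes. Against the 3-month mean, the median helicase gene read -0.14, -0.14 and -0.08 in the older retinas, against 0.03, -0.05 and -0.005 in the younger ones. All 3 older retinas lay below all 3 younger ones, as they did for the median of all genes. The number of lower genes depended on the scaling of the arrays. After cyclic loess 3 helicase genes were lower at that unadjusted p, or 6.98%, against 6.95% of all genes. After quantile normalization there were 4, or 9.30%, against 7.18%. With eye side as a covariate, the age difference rests on 8-month retina 1 alone. The other older retinas came from right eyes, unlike all younger ones. In that fit the median helicase difference was -0.14, against -0.06 over all genes. Of all genes at that p, 76.2% were lower as deposited, 55.2% after cyclic loess and 58.0% after quantile normalization. Without 8-month retina 1, 2 or 3 the lower count was 5, 3 and 7. These were 11.6%, 6.98% and 16.3%, against 7.09%, 6.9% and 9.91% of all genes. Without 3-month retina 1, 2 or 3 it was 4, 9 and 6. These were 9.30%, 20.9% and 14%, against 8.84%, 13.6% and 8.32% of all genes. Without both lens-rich retinas it was 4, or 9.30%, against 5.12% of all genes.

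**Figure D1:**
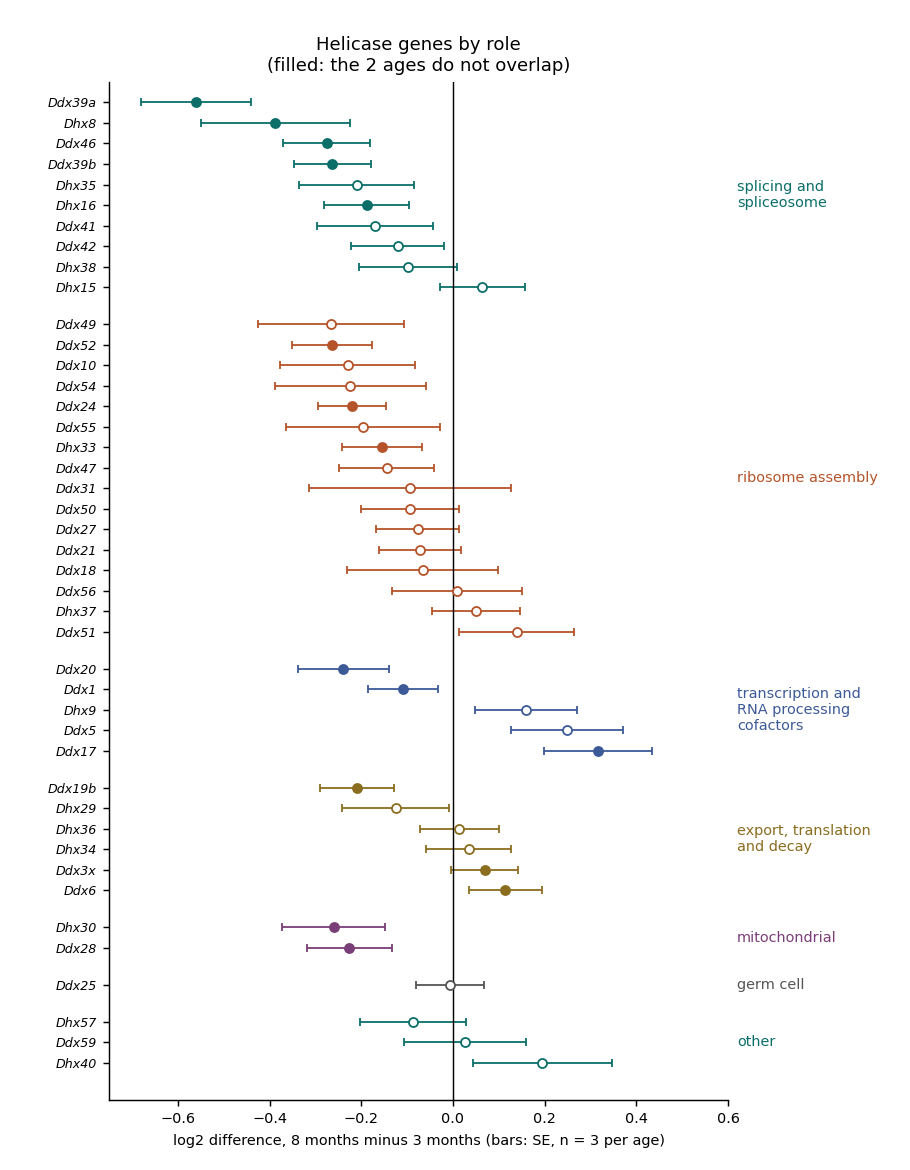
Log2 difference, 8 months minus 3 months, of the 43 measured helicase genes grouped by role, each read by its brightest kept probe set; bars are the SE with 3 retinas per age. Filled points mark genes whose ages do not overlap: 13 lie left of zero and 3 right of it, with Ddx39a farthest to the left at -0.56 and Ddx17 farthest to the right at 0.32.

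Helicases of the spliceosome read lower in 9 of 10 measured genes, with a median log2 difference of -0.20, and 4 of them were at an unadjusted limma p under 0.05. Of all genes, 63.5% were lower and 11.5% were lower at that p, with a median of -0.06. The largest difference belonged to Ddx39a, a close paralogue of Ddx39b that is known for both splicing and mRNA export and is counted here with the spliceosome. Its brightest probe set read 6.98, 6.74 and 7.15 in the 8-month retinas, against 7.60, 7.41 and 7.54 in the 3-month retinas. The ages did not overlap, and the means were 6.96 ± 0.20 at 8 months, against 7.52 ± 0.10 at 3 months (SD, n = 3 per age). The log2 difference was -0.56 ± 0.12 (SE), which did not pass (limma adjusted p = 0.208). All 4 kept probe sets of Ddx39a were lower, with differences of -0.56, -0.37, -0.42 and -0.60, and in each the ages did not overlap. The probe set that is not marked as matching several transcripts gave the -0.60, reading 6.16, 6.09 and 6.29 at 8 months, against 6.97, 6.48 and 6.88 at 3 months. Ddx39a was also the 1 helicase gene with several kept probe sets in which every kept probe set had an unadjusted limma p under 0.05. Without any single array its difference lay between -0.65 and -0.45. In a whole tissue, fewer cells that express a gene and less of its RNA per cell cannot be told apart.

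Ddx39b, also known as UAP56, recruits the U2 particle to introns and loads export factors onto mRNA. Its brightest probe set read 9.57, 9.57 and 9.55 at 8 months, against 9.95, 9.77 and 9.76 at 3 months, a difference of -0.26 ± 0.08 (SE, limma adjusted p = 0.273). The older retinas lay close together and below every younger one. The further probe sets did not share that size, at -0.07 and -0.001 with overlapping ages, and both carry a suffix that marks probes able to match other transcripts. Ddx46, which helps the U2 particle settle on the branch point, read 8.12, 7.84 and 7.97 at 8 months, against 8.32, 8.20 and 8.23 at 3 months in its brightest probe set. That difference was -0.28 ± 0.10 (SE, limma adjusted p = 0.285), but the other 4 kept probe sets of Ddx46 lay between -0.02 and 0.09, all with overlapping ages.

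Dhx8, which frees the spliced mRNA from the spliceosome, was the gene nearest the filter, with the third highest of its 6 values at 4.18. It read 4.16, 3.91 and 3.50 at 8 months, against 4.32, 4.25 and 4.18 at 3 months, so 2 older retinas lay below the filter of 4. Its difference of -0.39 ± 0.16 (SE, limma adjusted p = 0.334) was -0.21 without 8-month retina 3. Dhx16, which activates the spliceosome for catalysis, differed by -0.19 ± 0.09 (SE) without overlap (limma adjusted p = 0.388), and by -0.12 without 3-month retina 1. The remaining spliceosome helicases, Ddx41, Ddx42, Dhx35 and Dhx38, differed by -0.17, -0.12, -0.21 and -0.10, with overlapping ages in each. Dhx15, which takes spent spliceosomes apart, was the 1 member above zero, at 0.06 ± 0.09 (SE), and its further probe set differed by -0.03. Ddx23 was not measured, with readings from 2.34 to 2.54.

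The promoter of Ddx39b is shown because a short motif in it recurs among the helicase genes. RefSeq windows of 300 bases on GRCm38.p6, from 250 before to 50 after a gene's start, were given for 40 of the 43 measured helicase genes, in 49 windows. The letters CGGAAG, the core bound by ETS factors, occurred on either strand in 27 of these 40 genes. Counted by windows this was 29 of 49, or 59.2%, against 16.9% of all 32851 windows in the table. That table holds all genes, measured in the retina or not. The motif stood in 9 of the 12 lower genes that had a window and whose ages did not overlap, or 75.0%, against 67.5% of the 40. The letters CCAAT were in 46.9% of the helicase windows and 37.4% of all, and GGGCGG, which can overlap CGGAAG by its last letters, in 59.2% and 35.7%. A match describes the letters only. The window of Ddx39b is given 5' to 3', with the 2 matches in capitals.
Ddx39b (chr17:35241496-35241795, + strand): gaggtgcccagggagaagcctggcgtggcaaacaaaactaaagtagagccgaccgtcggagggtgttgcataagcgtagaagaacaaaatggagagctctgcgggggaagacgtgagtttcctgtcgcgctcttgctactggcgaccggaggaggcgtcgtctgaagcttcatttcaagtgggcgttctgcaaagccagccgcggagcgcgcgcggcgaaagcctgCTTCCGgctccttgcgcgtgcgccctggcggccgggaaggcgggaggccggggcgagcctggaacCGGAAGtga

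Among helicases of ribosome assembly, which work in the nucleolus on ribosomal RNA precursors, all 16 genes on the array were measured. Of these, 13 were lower, with a median log2 difference of -0.12, and 2 were at an unadjusted limma p under 0.05, a count near the 11.5% of all genes lower at that p. Ddx52, whose yeast counterpart acts in small-subunit assembly, read 6.58, 6.74 and 6.78 at 8 months, against 6.91, 7.02 and 6.96 at 3 months. The difference of -0.26 ± 0.09 (SE) did not pass (limma adjusted p = 0.278), and its further probe set differed by -0.14 with overlapping ages. Ddx24, whose yeast counterpart acts in large-subunit assembly, read 6.71, 6.63 and 6.62 at 8 months, against 6.86, 6.87 and 6.90 at 3 months. Its difference was -0.22 ± 0.07 (SE, limma adjusted p = 0.279). The further Ddx24 probe set went the other way, at 6.29, 6.29 and 6.50 at 8 months, against 6.24, 6.26 and 6.26 at 3 months. There too the ages did not overlap. The brightest Ddx24 probe set is of the less specific kinds, and the further one is not.

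The paralogues Ddx21 and Ddx50, nucleolar helicases that lie next to each other in the genome, differed by -0.07 ± 0.09 and -0.09 ± 0.11 (SE), both with overlapping ages. Ddx18 gave -0.07 in its brightest probe set and -0.34 ± 0.12 (SE) in a further, more specific one, which read 6.69, 6.48 and 6.56 at 8 months, against 7.07, 6.71 and 6.97 at 3 months. Dhx33, a nucleolar helicase, differed by -0.15 ± 0.09 (SE) without overlap (limma adjusted p = 0.436). The 3 members above zero were Ddx56, Dhx37 and Ddx51, at 0.01, 0.05 and 0.14, each with overlapping ages. Ddx10, Ddx27, Ddx31, Ddx47, Ddx49, Ddx54 and Ddx55 lay between -0.27 and -0.08 in their brightest probe sets, again with overlapping ages.

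Ddx5 and Ddx17, known as p68 and p72, are paralogues that act as transcription cofactors, in alternative splicing and with the microRNA processor Drosha. Both read higher at 8 months in their brightest probe sets. Ddx17 read 11.76, 11.81 and 11.76 in the older retinas, against 11.42, 11.69 and 11.26 in the younger ones, a difference of 0.32 ± 0.12 (SE, limma adjusted p = 0.305). A further probe set differed by 0.22 ± 0.09 (SE), also without overlap. The 1 Ddx17 probe set that is not marked as matching several transcripts differed by -0.01, with means of 5.71 ± 0.38 at 8 months, against 5.71 ± 0.27 at 3 months (SD, n = 3 per age).

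All 4 kept probe sets of Ddx5 were higher, by 0.25, 0.19, 0.37 and 0.46, and all 4 are of the less specific kinds, so Ddx5 had no measured value without those. The 0.46 came from readings of 12.43, 12.45 and 12.51 at 8 months, against 11.82, 12.38 and 11.80 at 3 months. The brightest Ddx5 probe set read 12.91, 13.07 and 12.94 at 8 months, against 12.61, 12.97 and 12.59 at 3 months, with overlap and a limma adjusted p of 0.389. In both genes 3-month retina 2 sat close to the older retinas and apart from the other 3-month retinas. Without single arrays the differences ran from 0.18 to 0.37 for Ddx5 and from 0.22 to 0.43 for Ddx17. The highest of each came without 3-month retina 2 (limma adjusted p = 0.127 and 0.114). The same retina had the highest 3'-minus-5' values among the younger ones, at 0.751 for Gapdh, against 0.707 and 0.729 in the others, and at 1.87 for actin, against 1.62 and 1.79. The part of RNA quality in this was not tested.

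**Figure D2:**
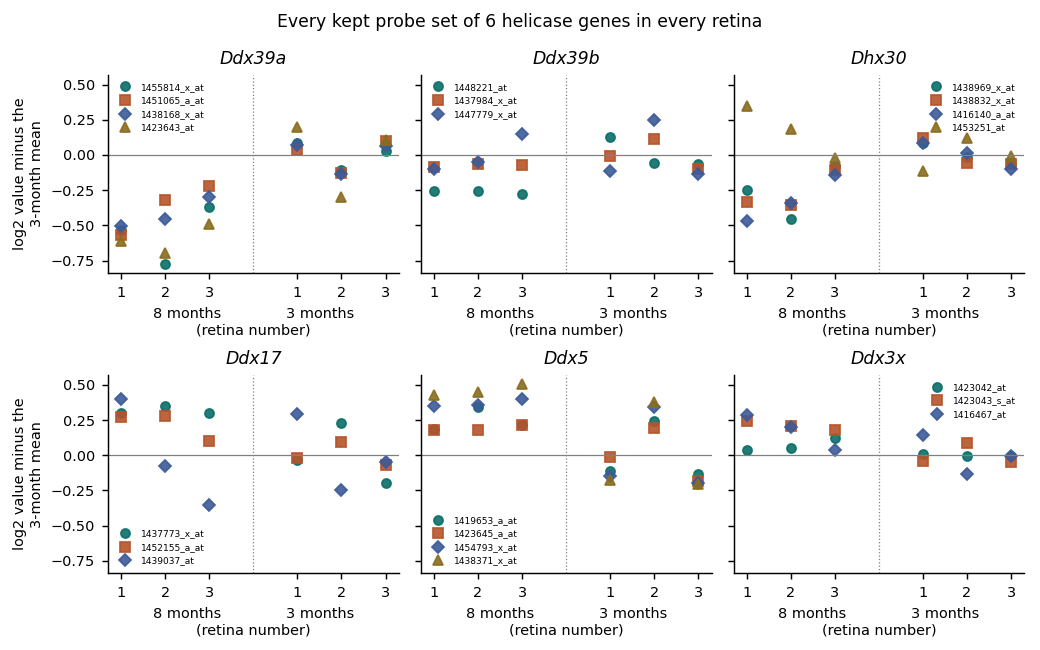
Log2 value minus the 3-month mean of every kept probe set (symbols) of 6 helicase genes in each retina, with the 3 retinas of 8 months on the left and the 3 of 3 months on the right of each panel. The 4 Ddx39a probe sets lie lower in every 8-month retina than in any 3-month retina, whereas in Ddx5 3-month retina 2 lies near the older retinas.

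The brightest probe sets of Ddx5 and Ddx17 both read higher. After this was seen, their promoter windows were searched for the TATA box letters TATAAA on either strand. The motif occurred in 3 of the 49 helicase windows, or 6.12%, against 13.6% of all windows, and these 3 belonged to Ddx5, Ddx17 and Ddx50. RefSeq gives 3 windows for Ddx5 and 2 for Ddx17, of which 1 each holds the motif and is printed 5' to 3' with the match in capitals. The match does not lie at the same place in both, being farther before the start in Ddx17 than in Ddx5. A match describes the letters only, and a link to the readings was not tested. Which start is used in the retina was not measured.
Ddx5 (chr11:106788445-106788744, - strand): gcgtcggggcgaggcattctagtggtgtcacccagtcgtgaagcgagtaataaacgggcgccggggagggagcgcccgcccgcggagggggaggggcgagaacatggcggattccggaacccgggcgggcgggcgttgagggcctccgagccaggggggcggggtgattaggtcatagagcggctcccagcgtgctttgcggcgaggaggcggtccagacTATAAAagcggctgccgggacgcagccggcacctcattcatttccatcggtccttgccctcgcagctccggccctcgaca
Ddx17 (chr15:79532868-79533167, - strand): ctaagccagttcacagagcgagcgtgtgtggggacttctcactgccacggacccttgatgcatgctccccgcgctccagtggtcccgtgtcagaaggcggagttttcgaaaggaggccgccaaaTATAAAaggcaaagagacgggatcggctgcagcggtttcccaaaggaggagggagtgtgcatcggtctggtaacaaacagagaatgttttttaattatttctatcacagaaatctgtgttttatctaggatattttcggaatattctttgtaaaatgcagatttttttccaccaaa

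The other cofactors differed by smaller amounts in their brightest probe sets. Dhx9, or RNA helicase A, differed by 0.16 ± 0.11 and 0.15 ± 0.22 (SE) in its probe sets, both with overlapping ages. Ddx1, part of the complex that joins the exons of tRNA, differed by -0.11 ± 0.08 (SE) in its brightest probe set, without overlap, and by 0.20 in the other, with overlap. Ddx20, also called Gemin3, belongs to the SMN complex that assembles splicing particles. It read 6.59, 6.60 and 6.87 at 8 months, against 6.89, 6.92 and 6.97 at 3 months, and its difference of -0.24 ± 0.10 (SE) did not pass (limma adjusted p = 0.332). In 8-month retina 3 it lay just under the lowest younger one, and no other probe set reads the gene.

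Of the 6 measured helicases of export, translation and decay, 4 were higher and 2 lower, with a median log2 difference of 0.02, in a list that does not hold Ddx39a or Ddx39b. Ddx19b, which releases mRNA at the cytoplasmic face of the nuclear pore, read 5.36, 5.37 and 5.23 at 8 months, against 5.54, 5.58 and 5.47 at 3 months. Its difference was -0.21 ± 0.08 (SE, limma adjusted p = 0.311), and its further probe set differed by -0.38 with overlapping ages, and 3-month retina 1 stood highest at 5.75. Ddx3x, an X-linked helicase of translation initiation, was higher in all 3 kept probe sets, by 0.07, 0.21 and 0.18. The 0.21 came from readings of 12.30, 12.27 and 12.24 at 8 months, against 12.02, 12.15 and 12.01 at 3 months, without overlap (limma adjusted p = 0.305).

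Ddx6, which represses translation and promotes decapping in P-bodies, differed by 0.11 ± 0.08 (SE) without overlap, and its further probe sets differed by 0.20 and 0.04. Dhx36, a resolvase of G-quadruplexes, gave 0.01 in its brightest probe set and -0.31 ± 0.10 (SE) in a dimmer one. In that dimmer one the older retinas read 5.58, 5.57 and 5.57, against 5.73, 5.90 and 6.03 in the younger ones. Dhx29, which assists scanning on structured mRNA leaders, differed by -0.13 ± 0.12, and Dhx34, of nonsense-mediated decay, by 0.03 ± 0.09 (SE), both with overlapping ages.

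The mitochondrial helicases were lower without overlap in their brightest probe sets. Dhx30, which is needed for mitochondrial ribosome assembly, read 8.56, 8.35 and 8.72 at 8 months, against 8.89, 8.79 and 8.74 at 3 months, a difference of -0.26 ± 0.11 (SE, limma adjusted p = 0.341), which was -0.16 without 8-month retina 2. Its other less specific probe sets differed by -0.26 and -0.32 without overlap. The 1 Dhx30 probe set of the specific kind differed by 0.17 ± 0.12 (SE), with overlapping ages, so the direction was not shared. Ddx28, which acts on the large mitochondrial subunit, read 5.50, 5.44 and 5.63 at 8 months, against 5.72, 5.67 and 5.86 at 3 months. That is -0.23 ± 0.09 (SE, limma adjusted p = 0.327), from a single probe set.

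Helicases of germ cells and of antiviral defence were mostly not measured. Ddx4, the germ cell helicase Vasa, read between 2.48 and 2.52, and Ddx43 between 3.51 and 3.59. Ddx25, best known from testis, was measured, with 6.22 ± 0.05 at 8 months, against 6.23 ± 0.03 at 3 months (SD, n = 3 per age). The antiviral genes Dhx58 and Ddx60 stayed between 2.24 and 2.79 and between 2.23 and 2.65 in all their probe sets. The DNA helicase gene Ddx11 was the one nearest below the filter, where the third highest of its values was 3.59. Dhx32 was also below it, and the little-studied Dhx40, Ddx59 and Dhx57 differed by 0.20, 0.03 and -0.09, all with overlapping ages.

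Probe sets of the same gene could be compared in 21 helicase genes. In 6 of them all kept probe sets were lower and in 4 all were higher, so 10 of 21, or 47.6%, had 1 sign, against 49.5% of the 4574 such genes in the whole table. The genes lower throughout were Ddx18, Ddx19b, Ddx31, Ddx39a, Ddx39b and Ddx52, and those higher throughout were Ddx3x, Ddx5, Ddx6 and Dhx9. Across the probe sets of a gene the differences spanned from 0.01 to 0.75, with a median span of 0.23. Of the 10 genes at an unadjusted limma p under 0.05, 3 had a single kept probe set, 4 had several of 1 sign and 3, namely Ddx17, Ddx24 and Ddx46, had mixed signs.

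**Figure D3:**
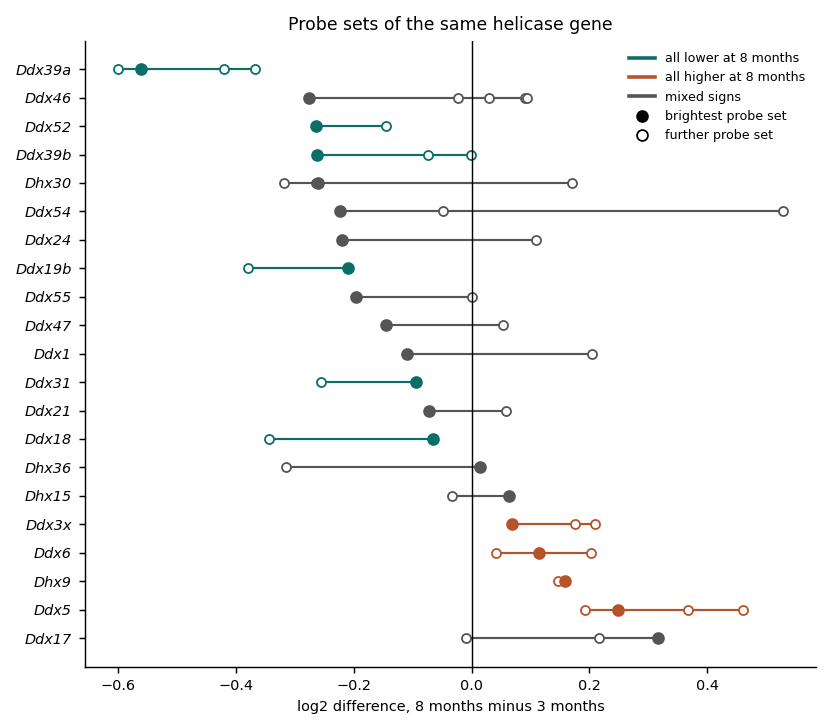
Log2 difference, 8 months minus 3 months, of each kept probe set of the 21 helicase genes with more than 1, filled for the brightest and open for the others. Lines join the probe sets of a gene, and only 10 of the 21 stay on 1 side of zero; Ddx54 spans from -0.22 to 0.53.

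Whether the probe sets of a gene differ in their age difference was tested within arrays, as the further minus the brightest probe set. None of the 35 helicase pairs passed, nor did any of the 7257 pairs over all genes (limma, 0%), the smallest adjusted p being 0.239 over all and 0.288 among helicases. Of the helicase pairs, 6 had an unadjusted limma p under 0.05, or 17.1%, against 13.6% of all pairs. The widest span was in Ddx54, a nucleolar helicase and corepressor of nuclear receptors. Its second probe set read 5.98, 6.02 and 5.78 at 8 months, against 5.23, 5.50 and 5.46 at 3 months, while its brightest read 6.05, 6.13 and 6.63 at 8 months, against 6.66, 6.41 and 6.41 at 3 months. The interaction was 0.75 ± 0.23 (SE, limma adjusted p = 0.288). Both of these are of the less specific kinds, and the specific Ddx54 probe set differed by -0.05 ± 0.08 (SE). The other pairs at that p came from Dhx36, Ddx46, Ddx24 and Dhx30, with limma adjusted p between 0.310 and 0.358.

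The genes that work with these helicases were listed in 11 groups, in which 113 genes were measured. None passed the test over all genes (limma), while 16 were lower and 0 were higher at an unadjusted limma p under 0.05, against 11.5% and 3.58% of all genes. Their median log2 difference was -0.09, against -0.06 over all genes, with 80 lower and 33 higher, where 63.5% of all genes were lower. Of 19 spliceosome partners, 5 were lower at that p. Sf3a1, a subunit of the U2 particle, read 7.72, 7.70 and 7.63 at 8 months, against 8.18, 8.09 and 8.36 at 3 months, a difference of -0.52 ± 0.09 (SE, limma adjusted p = 0.182). Its further probe sets differed by -0.24 and -0.46. Tfip11, the partner that brings Dhx15 to the spliceosome, differed by -0.45 ± 0.11 (SE, limma adjusted p = 0.221), but by -0.03 in a further probe set.

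Ribosome assembly partners were lower in 15 of 20, of which 3 were at that p, against 63.5% and 11.5% of all genes. Pes1, a large-subunit assembly factor read by 1 probe set, had 5.80, 5.72 and 5.94 at 8 months, against 6.32, 6.42 and 6.56 at 3 months. Its difference of -0.61 ± 0.10 (SE) was the most negative among the 113 partners, and it did not pass (limma adjusted p = 0.177). Bysl, a small-subunit factor, differed by -0.54 ± 0.19 (SE) with overlap and by -0.09 in a further probe set. The 6 measured genes of the SMN complex, the home of Ddx20, were all lower, with a median of -0.19, against -0.06 over all genes. Gemin2 differed by -0.50 ± 0.18 and Smn1 by -0.38 ± 0.16 (SE), with limma adjusted p of 0.287 and 0.330, and Smn1 by -0.21 without 8-month retina 2.

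Export partners were split evenly, 5 lower and 5 higher, with Thoc5 of the THO complex at -0.36 ± 0.12 (SE) and Gle1, the activator of Ddx19 at the pore, at -0.24 ± 0.07 (SE). The 4 kept Gle1 probe sets ran from -0.29 to 0.15. Mitochondrial RNA partners were lower in 7 of 9, where 63.5% of all genes were, with Tfam at -0.51 and -0.09 in its probe sets and Fastkd5 at -0.48 ± 0.14 (SE), or -0.32 without 3-month retina 1. Among other RNA helicases, Supv3l1, which unwinds RNA in mitochondria, differed by -0.54 ± 0.14 (SE, limma adjusted p = 0.230), and Snrnp200, the helicase of the U5 particle, by -0.24 and -0.28 in its probe sets. In the microRNA group 6 of 7 were lower, against 63.5% of all genes. Dgcr8, the partner of Drosha, differed by -0.29 in 1 probe set and by 0.29 in the other. Ago2, which carries microRNAs to their targets, lay between -0.24 and 0.20.

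**Figure D4:**
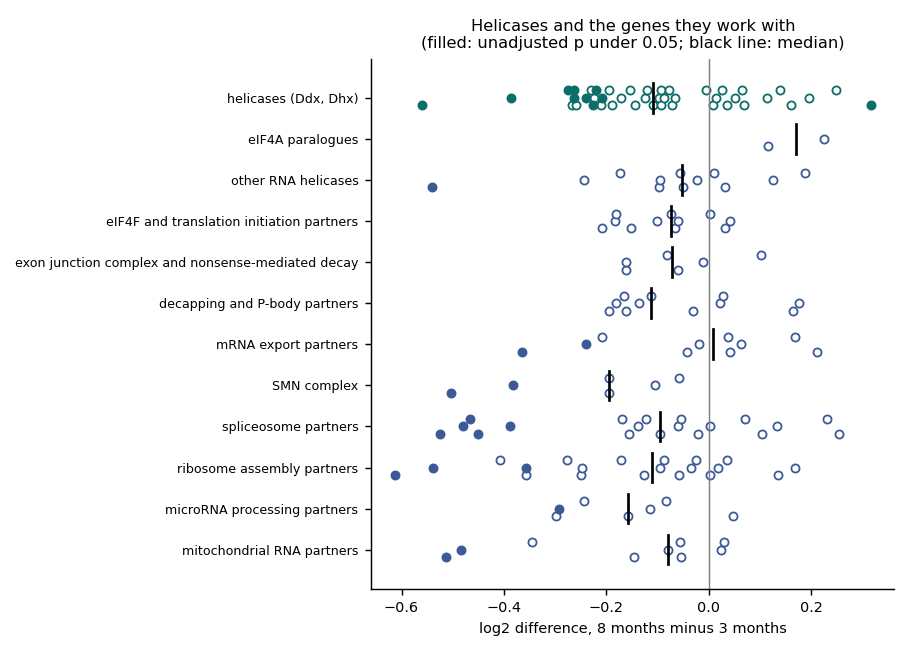
Log2 difference, 8 months minus 3 months, of the 43 helicase genes (top) and of the measured genes in 11 groups that work with them; each point is a gene, filled at an unadjusted limma p under 0.05, and the black line is the median of the group. All 16 filled partner genes lie left of zero.

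At an unadjusted limma p under 0.05, 11.5% of all genes were lower and 3.58% higher. Of 11 initiation partners, 6 exon junction and nonsense-mediated decay genes and 11 decapping genes, 0 were at that p in their brightest probe sets. Their medians were -0.07, -0.07 and -0.11, against -0.06 over all genes, with Eif3c at -0.21, Eif4h at -0.18, Rbm8a at -0.16, Smg5 at -0.16, Dcp1a at -0.19 and Patl1 at 0.16. The eIF4A paralogues, DEAD box helicases that unwind mRNA leaders, were both above zero, Eif4a1 at 0.23 ± 0.12 and Eif4a2 at 0.12 ± 0.08 (SE). Eif4a1 read 11.65, 11.68 and 11.72 at 8 months, against 11.32, 11.70 and 11.36 at 3 months. As in Ddx5, 3-month retina 2 lay with the older retinas. Without single arrays the Eif4a1 difference ran from 0.16 to 0.35, and the 0.35 came without that retina. The further Eif4a1 probe sets differed by 0.004 and -0.33, so the direction was not shared. Eif4a3, the helicase of the exon junction complex, did not pass the filter.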

How the data were processed

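RNA of 6 retinas, 3 at 8 months and 3 at 3 months, was amplified from 20 ng with a NuGEN kit and hybridised to Affymetrix mouse arrays, per the labels' protocols. The deposited values are log2 intensities per probe set, made by the authors in R 1.9.0 with GCRMA 1.1.0 according to the submitters' processing notes; its options are not given in the sources used here. GCRMA compresses low signals, which can shrink the differences of dim genes.

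Of 45101 probe sets, 64 controls were left out. The platform annotation gave 1 gene for 34945 probe sets, several for 932 and none for 9160. All 50 helicase gene identifiers matched the GRCm38.p6 gene table. Ages were compared with limma 3.58.1 in R 4.3.3 (lmFit, eBayes, no covariate, two-sided, Benjamini-Hochberg over kept probe sets, threshold 0.05). Pairs of probe sets of a gene were tested the same way on their within-array difference. Models were tested on simulated data.

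Helicase genes named in full were the up to 12 of smallest p without overlap, a fixed set of well-known members, the 5 of widest probe set span and those next to the filter; partners were the eIF4A genes and the 2 of smallest p per list. The members and lists were chosen with earlier results of these data known. Same-numbered retinas were not treated as pairs. Over all kept probe sets, lens genes included, their deviations from the age means correlated at -0.14, 0.06 and -0.28. Because lens signal differed among the retinas, these values cannot decide whether the number marks a batch. The number of arrays limits precision, and no exact permutation test was used, since with 3 arrays per age its smallest two-sided p is 0.1. Probe sets ending in _s_at, _x_at or _a_at are called less specific. Of the listed partner symbols, 12 of 129 were not found in the annotation.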

Additional observations from a re-analysis of the deposited data

How the results depend on the processing

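Alternatives were run on 24 named helicase genes and 22 partner genes under 18 settings. No helicase gene or partner gene passed the adjusted threshold under any of them. No pair of probe sets did under the settings in which pairs were tested, which leave out the median over probe sets and the probe set of smallest spread. Of 818 values, 795 kept the sign they had as deposited and 23 did not. Leaving out the lens-rich retinas was chosen with earlier results known.

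Helicase genes lower at an unadjusted limma p under 0.05 numbered 9 as deposited, or 20.9%, against 11.5% of all genes. They numbered 4 after quantile normalization, 3 after cyclic loess, 4 without both lens-rich retinas and 3 to 9 without single arrays. With the replicate number as a block they numbered 5, or 11.6%, against 9.16% of all genes. With the median over kept probe sets they numbered 5, or 11.6%, against 11.7% of all genes, so they did not exceed the share of all genes. Helicase genes higher at that p numbered 1 as deposited, 2 with no filter and 2 with a variance trend. They numbered 0 without the lens-rich retinas, 3 with the median over probe sets, 0 without less specific probe sets and 0 to 2 without single arrays. No count is given with eye side as a covariate, since the age difference in that fit rests on a single older retina. The median helicase difference of -0.11 was -0.074 after quantile normalization, -0.074 after cyclic loess and -0.073 with the lens-rich retinas left out, and -0.16 to -0.11 without single arrays.

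Helicase probe sets lower at that p were 16 as deposited, 9 after quantile normalization and cyclic loess, and 10 with the block. They were 6 without the lens-rich retinas, 9 without less specific probe sets and 7 to 15 without single arrays. The higher ones were 6, then 3 after median centring and 1 without the lens-rich retinas. They were 0 without less specific probe sets and 1 to 9 without single arrays. Genes whose probe sets agreed in sign were 10 of 21, 4 of 7 without less specific probe sets, and 8 to 13 without single arrays. Helicase pairs of probe sets at that p were 6, then 1 with the filter at 6 and 2 without the lens-rich retinas. They were 2 without less specific probe sets and 3 to 8 without single arrays. Partner genes lower were 16, 9 without the lens-rich retinas and 11 to 24 without single arrays. Those higher were 0, then 3 with no filter, 2 after quantile normalization, 3 after cyclic loess, 3 with the median over probe sets and 0 to 3 without single arrays.

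Signs turned as follows. With the median over probe sets, Ddx1 was 0.048, Ddx46 0.10, Ddx54 0.53, Dhx36 -0.15, Dgcr8 0.0012 and Ago2 0.030. Without less specific probe sets, Ddx17 was -0.0089, Ddx24 0.11, Dhx15 -0.033, Dhx30 0.17 and Eif4a1 -0.33. With the probe set of smallest spread, Ddx21 was 0.059, Dhx15 -0.033 and Gle1 0.020. Ddx25 was 0.072 after quantile normalization, 0.060 after cyclic loess and 0.019 with eye side. Dhx15 was -0.030 with eye side. Dhx36 was -0.0079 after median centring. Without single arrays Ddx25 ran from -0.021 to 0.021 and Dhx36 from -0.030 to 0.060. Among other genes that moved by over 1.5 times without single arrays, Ddx54 ran from -0.40 to -0.11, Ddx50 from -0.19 to -0.038, Dhx29 from -0.21 to -0.014, Dhx9 from 0.098 to 0.25 and Smg5 from -0.23 to -0.076. Changes with another probe set follow from its construction; the cause of the others was not tested. The block changed no other count by over 1.5 times.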

Other observations

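A few probe sets, chosen after their values were seen, shared a pattern over the retinas. The brightest probe sets of the same genes did not show it at both ages. The further Ddx6 probe sets read 7.30, 6.76 and 6.41 and 6.95, 6.43 and 6.12 in 8-month retinas 1 to 3, against 6.87, 6.44 and 6.55 and 7.06, 5.99 and 6.32 in 3-month retinas 1 to 3. The dim Ddx17 probe set read 6.12, 5.64 and 5.36 at 8 months, against 6.01, 5.47 and 5.67 at 3 months. In all of these, retina 1 of each age was the highest of its age. The brightest Ddx6 probe set read 11.65, 11.56 and 11.53 at 8 months, against 11.41, 11.52 and 11.46 at 3 months. In it, retina 1 was the highest at 8 months only.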
